A study of Mus musculus with 24 samples.

Results

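Layer 5 of the cerebral cortex holds the neurons that carry cortical output, and 8 genes that mark its classes of projection neuron were followed here through the mPFC and the ACC. The 8 genes, Bcl11b, Fezf2, Etv1, Pou3f1, Tshz2, Deptor, Parm1 and Rbp4, were chosen by name as layer 5 genes, but with earlier results of these data known. They are 8 of the 33364 genes counted. RNA-seq was done on 2 frontal areas, mPFC (medial prefrontal cortex) and ACC (anterior cingulate cortex), of C57BL/6 mice (the J substrain, by the study's methods) aged 3 months, 2 weeks after spared nerve injury (SNI) or sham surgery. SNI is a model of neuropathic pain in which some branches of the sciatic nerve are cut and another is spared, here the tibial nerve, and sham mice had the surgery without the nerve injury. Female and male mice were kept apart, which makes 8 groups (female or male, sham or SNI, mPFC or ACC) of 3 libraries each, 24 in all. Each library came from a pool of several animals, so the spread between libraries is a spread between pools and holds less variation than that between single mice.

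Layer 5 projection neurons fall into extratelencephalic neurons, which send axons to the spinal cord, brainstem and thalamus, intratelencephalic neurons, which project within the cortex and to the striatum, and near-projecting neurons, whose axons stay local. The transcription factor Fezf2 specifies the extratelencephalic class and acts upstream of Bcl11b (Ctip2), a zinc finger factor that directs the outgrowth of these axons. Layer 5 neurons of the prefrontal and cingulate cortex are a main route from these areas to subcortical circuits of pain and mood.

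The libraries held between 23853845 and 32864391 reads counted on genes, with a median of 26727282. A count of 3 reads, taken as the floor, is between 0.0913 and 0.126 CPM (reads of a gene scaled to a common library size) in these libraries, and intervals and floors of this kind cover counting error only. A pair of libraries stood apart from their groups. Leaving out replicate 3 of the female sham mPFC raised the genes called between SNI and sham in the female mPFC from 1 to 2758, and leaving out replicate 3 of the male sham ACC raised those in the male ACC from 1 to 2305. Calls that rest on either library are given with and without it, while correlations between genes were computed with both kept. The summed level of 10 genes of excitatory neurons lay between 5608 and 6859 CPM in every library. In the male mPFC it was higher in every SNI library than in every sham library.

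All 8 genes were well counted. The lowest count of any of them in any library was 302 reads, for Rbp4, and the highest was 5182 reads, for Tshz2. All 8 passed the filter on low counts in every comparison, so none was lost to it. Compared per length of exon, as RPKM, Fezf2 had the highest level in the mPFC, with a median of 23.6 RPKM over 12 libraries, and Tshz2 the lowest, with 4.98 RPKM. Between them came Bcl11b (12.8 RPKM), Parm1 (12.7 RPKM), Rbp4 (12.7 RPKM), Pou3f1 (10.5 RPKM), Etv1 (7.74 RPKM) and Deptor (5.16 RPKM). The ranges of Bcl11b, Parm1, Rbp4 and Pou3f1 overlapped, as did those of Deptor and Tshz2, so the order within these sets was not resolved. In the ACC the order was different. Tshz2 (17.3 RPKM) stood beside Fezf2 (17.6 RPKM) and Parm1 (16.8 RPKM), followed by Pou3f1 (12.5 RPKM), Etv1 (11.3 RPKM), Rbp4 (10.4 RPKM) and Bcl11b (9.54 RPKM), and each of these overlapped its neighbour in range. Deptor (6.78 RPKM) was below all others in every ACC library. These levels divide by the length of all annotated exons, so a gene whose neurons use a short isoform is understated.

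The members, placed on GRCm38, are all protein coding in GENCODE M21. Bcl11b (ENSMUSG00000048251) covers chr12:107910403-108003602 on the minus strand and Fezf2 (ENSMUSG00000021743) covers chr14:12342094-12348189, also on the minus strand. Etv1 (ENSMUSG00000004151), at chr12:38779380-38870484, is on the plus strand, as are Pou3f1 (ENSMUSG00000090125), a gene of 1 exon at chr4:124656807-124660655, and Tshz2 (ENSMUSG00000047907) at chr2:169633013-170071816. Deptor (ENSMUSG00000022419) covers chr15:55112317-55259271 and Parm1 (ENSMUSG00000034981) covers chr5:91517615-91626894, both on the plus strand, and Rbp4 (ENSMUSG00000024990) covers chr19:38116629-38125281 on the minus strand. The non-coding gene Gm26883 lies on the strand opposite to Tshz2 and shares 5076 exonic bases with it, 65.2% of the exonic length of Tshz2. Gm26883 itself had between 0 and 48 reads per library, and since the strand mode of the counting is not given in the sources used here, reads of the pair cannot be told apart. Gm2164 overlaps 8.57% of the exonic length of Pou3f1 and Gm9920 overlaps 3.41% of that of Deptor, with at most 11 reads for either.

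The sequence upstream of 4 of the genes is shown because they differed between the regions in opposite directions, Tshz2 and Etv1 being lower in the mPFC, and Fezf2 and Rbp4 being higher there. RefSeq windows (GRCm38.p6) were matched for 6 of the 8 genes, and none was used here for Deptor and Pou3f1. Each sequence runs 5′ to 3′ on the strand of the gene, within the 250 bases before the RefSeq start, and stops at the first base that GENCODE M21 counts as exonic. Bcl11b, with 62 such bases, and Parm1, with 165, had windows too and are not shown, to keep to a pair of genes in each direction. Capitals mark matches on either strand to CCAAT or to GGGCGG, the core of a GC box. The stretches are chr2:169632259-169632508 (plus strand) for Tshz2, chr12:38779832-38780081 (plus) for Etv1, chr14:12345960-12346115 (minus) for Fezf2 and chr19:38125322-38125571 (minus) for Rbp4.
Tshz2: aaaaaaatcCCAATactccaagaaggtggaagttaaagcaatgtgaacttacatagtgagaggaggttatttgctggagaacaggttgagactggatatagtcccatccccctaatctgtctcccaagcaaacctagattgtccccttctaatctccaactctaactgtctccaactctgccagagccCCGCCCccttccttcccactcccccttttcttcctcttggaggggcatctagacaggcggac
Etv1: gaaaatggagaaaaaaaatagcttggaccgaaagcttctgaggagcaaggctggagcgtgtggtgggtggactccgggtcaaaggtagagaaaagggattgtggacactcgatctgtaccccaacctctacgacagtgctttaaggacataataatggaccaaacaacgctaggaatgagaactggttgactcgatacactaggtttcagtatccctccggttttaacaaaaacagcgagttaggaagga
Fezf2: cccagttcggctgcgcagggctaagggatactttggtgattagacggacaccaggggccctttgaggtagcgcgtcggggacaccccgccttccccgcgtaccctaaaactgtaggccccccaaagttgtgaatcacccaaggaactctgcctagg
Rbp4: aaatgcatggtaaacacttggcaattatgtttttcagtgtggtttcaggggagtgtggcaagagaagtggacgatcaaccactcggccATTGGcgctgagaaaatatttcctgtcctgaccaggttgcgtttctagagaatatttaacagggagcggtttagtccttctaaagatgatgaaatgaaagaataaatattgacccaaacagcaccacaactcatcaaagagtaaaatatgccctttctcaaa

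Tshz2 had 1 match to CCAAT and 1 to GGGCGG, Rbp4 had 1 match to CCAAT, and Etv1 and Fezf2 had neither. In 32851 RefSeq windows of 250 bases, 33.8% held CCAAT and 32.7% held GGGCGG on either strand. TATAAA, held by 12.4% of all windows, and the POU octamer ATTTGCAT, held by 1.6%, were in none of the 4 stretches. CANNTG, the E-box, was in Rbp4 with 1 match and is in 66.2% of all windows. GGAA, the core bound by ETS factors such as Etv1, was matched 4 times in Tshz2, 2 times in Etv1 and in Fezf2, and 1 time in Rbp4, and 93.4% of all windows hold it. These matches are letters in a window and not sites of binding. With 156 bases, the Fezf2 stretch is shorter than the windows behind these shares, and the Etv1 and Fezf2 stretches lie inside the annotated genes, outside their exons.

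The first comparison asks how the mPFC and the ACC differ in these genes in sham mice. In the sham females 7 of the 8 genes were differentially expressed (DEGs, FDR under 0.1, edgeR quasi-likelihood test), 3 of them higher and 4 lower in the mPFC. Of the 16746 genes tested there, 14% were called higher and 14.5% lower. In the sham males 7 of the 8 were DEGs, 3 higher and 4 lower, where 7.46% of the 16831 genes tested were called higher and 6.7% lower. The same question in SNI mice gave 8 of 8 DEGs in females, 3 higher and 5 lower, against 13.7% of 16930 genes called higher and 13.9% lower. In SNI males it gave 8 of 8, again 3 higher and 5 lower, against 10.4% of 16872 genes called higher and 10.6% lower. The median log2 difference of the 8 genes was -0.24 and -0.33 in sham females and males and -0.36 and -0.23 in SNI females and males, while the median over all genes tested was between 0.0017 and 0.0112. Bcl11b, Fezf2 and Rbp4 were higher in the mPFC in all 4 comparisons, and Tshz2, Etv1 and Parm1 were lower in all 4. Sham females gave 7 calls without replicate 3 of the female sham mPFC, in a fit that called 41.5% of all genes. Sham males gave 8 without replicate 3 of the male sham ACC, in a fit that called 27% of all genes. The calls in SNI males were the least steady, and 4 to 8 members were called when single libraries were left out, with 5 without replicate 3 of the ACC, 4 without replicate 1 of the mPFC and 5 without replicate 2 of the mPFC. Bcl11b, Fezf2, Tshz2 and Pou3f1 were called there in each of these fits. In bulk tissue fewer cells of a type and less RNA per cell cannot be told apart, which holds for every difference given here.

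**Figure D1:**
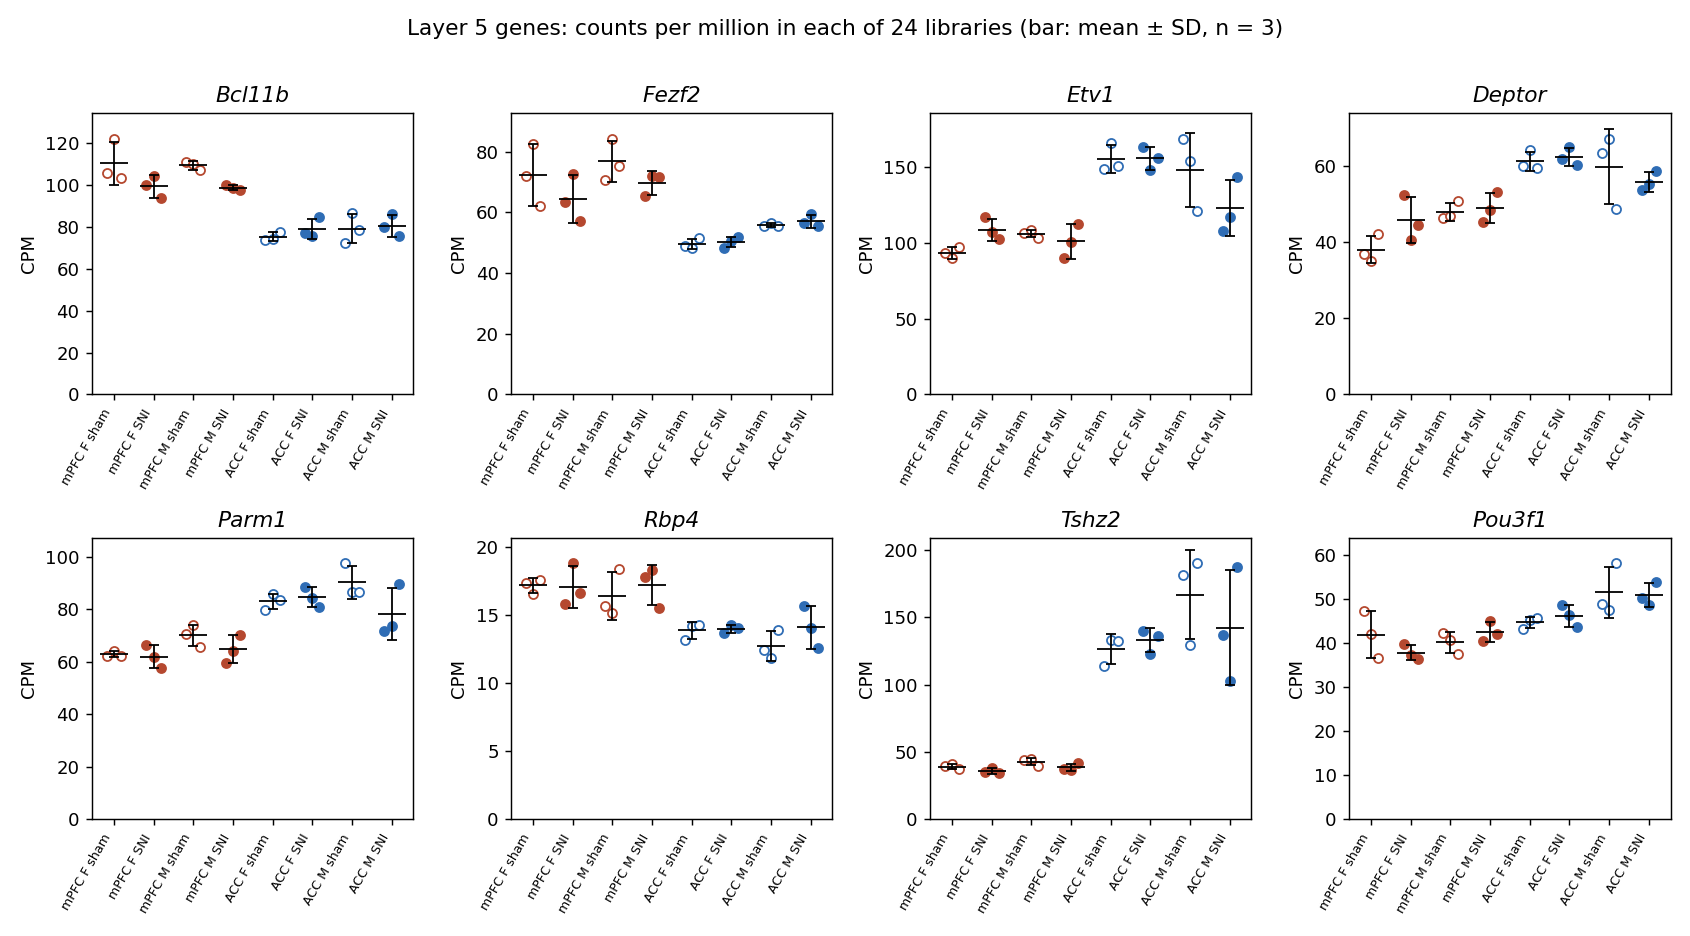
CPM of the 8 genes in each library, with 8 groups on the x axis (region, sex as F or M, and treatment), red for the mPFC, blue for the ACC, open points for sham, filled points for SNI, and bars for the mean ± SD of 3 libraries. The 12 mPFC libraries of Tshz2 lie between 34.2 and 44.3 CPM and its 12 ACC libraries between 102 and 190 CPM, and the regions of Bcl11b do not overlap either.

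Bcl11b had 106, 122 and 104 CPM in the 3 sham female mPFC libraries and 73.7, 74.5 and 77.7 CPM in the sham female ACC. In sham males it had 111, 110 and 107 CPM in the mPFC and 72.6, 86.5 and 78.6 CPM in the ACC. Over all 24 libraries the lowest mPFC value, 93.8 CPM, stood above the highest ACC value, 86.5 CPM. The log2 difference (mPFC minus ACC) was 0.56 ± 0.07 (SE) in sham females with an adjusted p of 0.000588, and 0.48 ± 0.07 in sham males with an adjusted p of 0.00158. In SNI mice it was 0.34 ± 0.06 in females and 0.29 ± 0.06 in males, with adjusted p-values of 0.00126 and 0.00445. The sham differences correspond to 1.48-fold and 1.39-fold higher levels in the mPFC, and those in SNI mice to 1.26-fold and 1.22-fold. The difference was smaller in the SNI mice of both sexes, but the change in it was not called, with a region by SNI term of -0.22 ± 0.10 in females (adjusted p = 0.434) and -0.18 ± 0.09 in males (adjusted p = 1 when rounded).

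Fezf2 had the same direction as Bcl11b in each comparison. In the sham females it had 72.1, 82.6 and 62.1 CPM in the mPFC and 48.9, 48.3 and 51.6 CPM in the ACC, so the groups did not overlap. In sham males it had 70.8, 84.3 and 75.3 CPM in the mPFC against 55.6, 56.6 and 55.4 CPM in the ACC. The log2 difference was 0.55 ± 0.09 (adjusted p = 0.00224) in sham females, 0.47 ± 0.07 (adjusted p = 0.00211) in sham males, 0.37 ± 0.08 (adjusted p = 0.00453) in SNI females and 0.28 ± 0.06 (adjusted p = 0.00518) in SNI males. Within each of these 4 comparisons the 3 mPFC libraries were all above the 3 ACC libraries, although the pooled ranges, 57.2 to 84.3 CPM and 48.3 to 59.4 CPM, overlapped slightly.

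Markers of striatal and layer 6 neurons, which express Bcl11b or both factors, were also higher in the mPFC in part of the comparisons. Genes of inhibitory neurons, given further below, were called lower more often than higher in all 4. Bcl11b is also a gene of striatal medium spiny neurons, and of the 11 striatal genes tested 7 were called higher and 1 lower in the mPFC of sham females, 5 and 1 in sham males, 5 and 1 in SNI females, and 4 and 2 in SNI males. Their summed level was 507 to 609 CPM in the sham female mPFC and 416 to 430 CPM in the sham female ACC. Drd1, the dopamine receptor of the direct pathway, differed by 0.81, 0.98, 0.85 and 0.45 on the log2 scale in the 4 comparisons, in the order sham females, sham males, SNI females and SNI males, but reached only 10.4 to 15.4 CPM in the mPFC. Corticothalamic neurons of layer 6, which hold lower levels of both factors, were compared too, with 7 of 10 layer 6 genes called higher in sham females, 6 in sham males, 4 in SNI females and 3 in SNI males, where 2 were called lower. Ntsr1, the neurotensin receptor that marks them, differed by 1.41, 1.11, 1.18 and 0.79 in the same order, and Syt6 by 0.88, 0.55, 0.17 and -0.15, the last 2 not called. The summed level of the layer 6 genes was 267 to 330 CPM in the sham female mPFC against 199 to 216 CPM in the ACC. In SNI males it was 220 to 250 CPM in the mPFC against 221 to 264 CPM in the ACC, and the median log2 difference of the list was -0.15, while Bcl11b and Fezf2 were higher in the mPFC there. The part of striatal and layer 6 cells in the difference of Bcl11b and Fezf2 was not tested.

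Rbp4 encodes the plasma carrier of retinol, and its promoter drives a Cre line used to reach layer 5 neurons. It was the third gene higher in the mPFC and had the lowest counts of the 8. Sham females had 17.4, 16.6 and 17.6 CPM in the mPFC and 13.2, 14.2 and 14.3 CPM in the ACC, and sham males had 15.6, 15.2 and 18.4 CPM against 12.4, 11.9 and 13.9 CPM. The log2 difference was 0.32 ± 0.08 (adjusted p = 0.0176) in sham females, 0.37 ± 0.10 (adjusted p = 0.0416) in sham males, 0.29 ± 0.08 (adjusted p = 0.0202) in SNI females and 0.29 ± 0.10 (adjusted p = 0.0652) in SNI males. In the SNI males the groups overlapped, with 17.8, 18.3 and 15.5 CPM in the mPFC against 15.7, 14.1 and 12.6 CPM in the ACC. In sham males Rbp4 was not called without replicate 1 or 2 of the ACC or replicate 3 of the mPFC (adjusted p between 0.123 and 0.23). Ttr, the plasma partner of the Rbp4 protein and a gene of the choroid plexus, reached 871 CPM in 1 female sham ACC library, while the lowest of that group had 0.605 CPM. Rbp4 stayed between 13.2 and 14.3 CPM across those 3 libraries. In the mPFC the highest Ttr value was 72.5 CPM, against a median of 0.405 CPM.

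Tshz2 showed the widest difference of the 8 genes. Tshz2 encodes a teashirt zinc finger factor found in near-projecting neurons of layer 5. The sham female mPFC had 39.3, 41.0 and 36.9 CPM and the sham female ACC 114, 133 and 132 CPM, and in sham males 43.8, 44.3 and 39.8 CPM stood against 181, 129 and 190 CPM. Every ACC library was above every mPFC library. The log2 difference was -1.68 ± 0.08 (adjusted p = 5.83e-07) in sham females, -1.96 ± 0.13 (adjusted p = 7.84e-06) in sham males, -1.88 ± 0.06 (adjusted p = 9.48e-09) in SNI females and -1.89 ± 0.16 (adjusted p = 7.67e-06) in SNI males, which are between 3.21-fold and 3.89-fold lower levels in the mPFC. No other member differed by as much as 1 on the log2 scale in any of the 4. The male ACC was uneven in Tshz2. The 3 SNI libraries there had 137, 102 and 188 CPM, and the group SDs were 32.8 CPM for sham and 42.9 CPM for SNI, against 11.1 and 8.89 CPM in females.

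Etv1 (ER81), an ETS factor found in many intratelencephalic neurons of layer 5, was lower in the mPFC in all 4 comparisons. It had 93.0, 89.9 and 97.5 CPM in the sham female mPFC against 149, 166 and 151 CPM in the ACC, and 107, 108 and 103 CPM in the sham male mPFC against 169, 154 and 121 CPM in the ACC. Replicate 3 of the male sham ACC was the lowest of its group. The log2 difference was -0.72 ± 0.06 (adjusted p = 9.79e-05) in sham females, -0.47 ± 0.10 (adjusted p = 0.0136) in sham males, -0.51 ± 0.06 (adjusted p = 5.18e-05) in SNI females and -0.29 ± 0.09 (adjusted p = 0.0571) in SNI males. In sham males it was -0.60 ± 0.05 (adjusted p = 2.47e-06) without replicate 3 of the male sham ACC. That fit called 27% of all genes. In SNI males the groups overlapped, with 89.8, 100 and 113 CPM in the mPFC and 108, 117 and 144 CPM in the ACC.

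Deptor, an inhibitor that binds mTOR, was lower in the mPFC in the 3 comparisons in which it was called. Sham females had 36.8, 35.1 and 42.1 CPM in the mPFC and 60.002, 64.1 and 59.5 CPM in the ACC, a log2 difference of -0.68 ± 0.07 (adjusted p = 0.000222). Sham males had 46.4, 46.9 and 50.6 CPM against 63.5, 67.1 and 48.6 CPM, and the difference of -0.31 ± 0.11 did not pass the threshold (adjusted p = 0.1). The low ACC value was again replicate 3. Without that library the difference was -0.44 ± 0.06 (adjusted p = 0.000153), in a fit that called 27% of all genes. After SNI it was -0.44 ± 0.08 (adjusted p = 0.00168) in females and -0.20 ± 0.07 (adjusted p = 0.0598) in males. Of 9 genes of the mTOR complexes and their regulators, 1 (Akt1s1, 0.23 in sham females) was called in the 4 comparisons, and Mtor differed by 0.15, 0.00, 0.00 and -0.04.

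Parm1, a mucin-like membrane protein, had 62.2, 64.2 and 62.2 CPM in the sham female mPFC against 79.9, 85.8 and 83.5 CPM in the ACC. In sham males it had 70.5, 74.0 and 65.8 CPM against 97.6, 86.6 and 86.5 CPM. Its groups did not overlap in any of the 4 comparisons, and the log2 difference was -0.39 ± 0.06 (adjusted p = 0.00111), -0.35 ± 0.07 (adjusted p = 0.0104), -0.45 ± 0.06 (adjusted p = 0.000206) and -0.28 ± 0.08 (adjusted p = 0.0346), in the order sham females, sham males, SNI females and SNI males.

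Pou3f1 (SCIP or Oct6), a POU domain factor of layer 5 extratelencephalic neurons, was the gene that differed least in sham females, but not in either male comparison. In sham females the groups overlapped, with 47.2, 42.0 and 36.5 CPM in the mPFC and 43.2, 45.1 and 45.7 CPM in the ACC, and the log2 difference was -0.08 ± 0.09 (adjusted p = 0.537). Without replicate 3 of the female sham mPFC it was 0.01 ± 0.06. In sham males 42.3, 40.7 and 37.5 CPM stood below 48.9, 47.5 and 58.1 CPM, a difference of -0.35 ± 0.09 (adjusted p = 0.0273) that was not called without replicate 2 or 3 of the male sham mPFC (adjusted p = 0.103 and 0.146). SNI females and males gave -0.29 ± 0.06 (adjusted p = 0.00484) and -0.27 ± 0.06 (adjusted p = 0.0105). Among sham mice the region by sex term of Pou3f1 was 0.26 ± 0.13 (adjusted p = 0.628), so the sexes were not shown to differ.

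**Figure D2:**
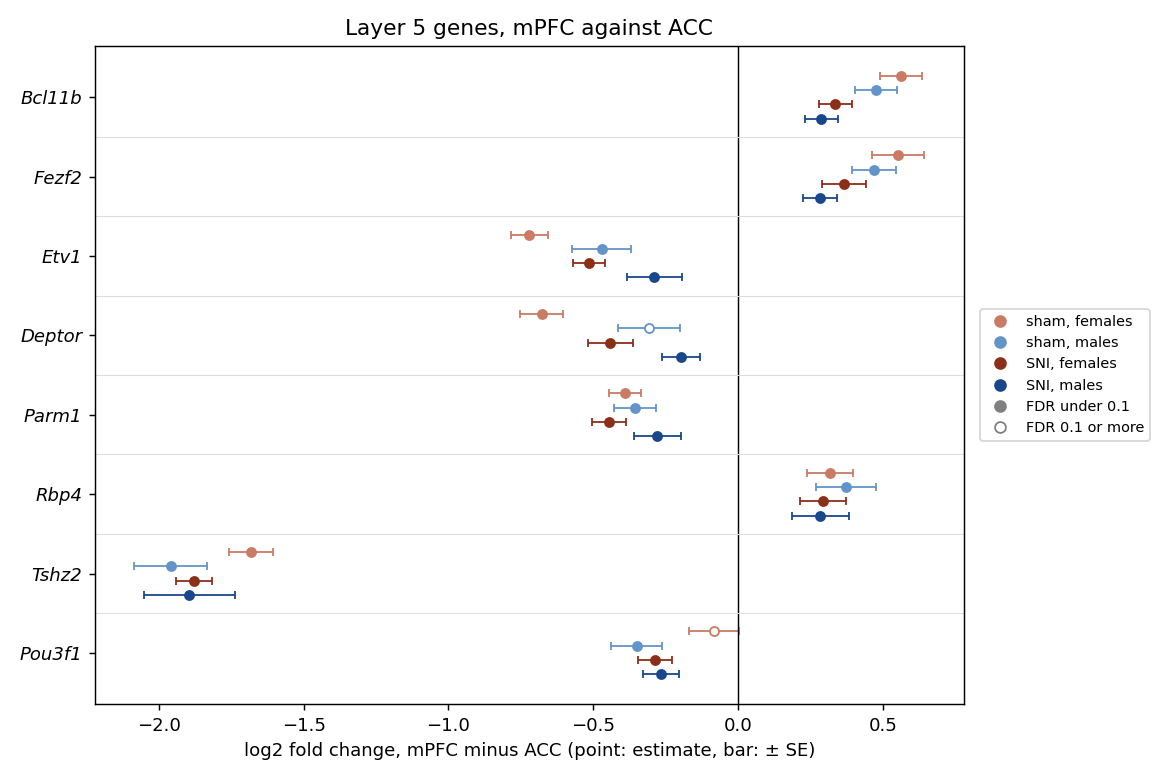
Log2 fold change of each gene between the mPFC and the ACC (x axis, mPFC minus ACC) in 4 comparisons, each of 3 libraries against 3, with points for the estimate, bars for ± SE, and filled points where the FDR was under 0.1. Bcl11b, Fezf2 and Rbp4 lie between 0.28 and 0.56, while Tshz2 lies between -1.96 and -1.68.

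Genes of 1 class differed in direction between the regions, as Bcl11b and Fezf2 did from Pou3f1 in the comparisons that called Pou3f1. Other genes of each class were compared in turn. Of 8 other extratelencephalic genes tested, 1 was called higher and 2 lower in sham females, and 1 and 1 in sham males. In the SNI mice 3 were called higher and 1 lower in females, and 2 and 1 in males. Crym, which binds thyroid hormone, was the gene higher in all 4, with log2 differences of 0.96, 0.95, 0.93 and 0.74 and with 93.9 to 132 CPM in the mPFC against 49.6 to 72.2 CPM in the ACC. Npr3, a clearance receptor of natriuretic peptides, was lower in the mPFC of sham females (-0.26) and not called in the other 3 comparisons, and Slco2a1, a prostaglandin transporter at 3.22 CPM or less, was lower in sham and in SNI males (-0.94 and -1.19).

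Of 9 other intratelencephalic genes, Rspo1 and Hsd11b1 were called lower in all 4 comparisons, as Etv1 was. Rspo1, a secreted agonist of Wnt signalling, differed by -1.85, -1.77, -1.79 and -1.60, from 10.1 to 19.2 CPM in the ACC to 2.39 to 5.15 CPM in the mPFC. Hsd11b1, which regenerates active glucocorticoid, differed by -0.75, -1.11, -1.03 and -0.93. Tox2 was called higher in sham females (0.41), and the other 6 were not called in any of the 4.

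Among near-projecting genes other than Tshz2 the direction was mixed. Of 8 tested, Trhr, Lypd1 and Rxfp1 were called higher in the mPFC in all 4 comparisons and Crh was called lower in all 4. Trhr, the receptor of thyrotropin-releasing hormone, differed by 1.07, 1.71, 1.89 and 1.78, and its 12 mPFC libraries (4.49 to 7.47 CPM) stood above its 12 ACC libraries (1.23 to 3.05 CPM). Lypd1 differed by 0.58, 0.90, 0.79 and 0.76 and Rxfp1, a relaxin receptor, by 0.36, 0.42, 0.56 and 0.47. Crh, corticotropin-releasing hormone, which interneurons express too, differed by -0.51, -0.52, -0.44 and -0.35. Nxph1 was called higher in SNI males alone (0.18), which was not tested against the other groups. Thus Tshz2 was lower in the mPFC in the same libraries in which 3 other near-projecting genes were higher.

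**Figure D3:**
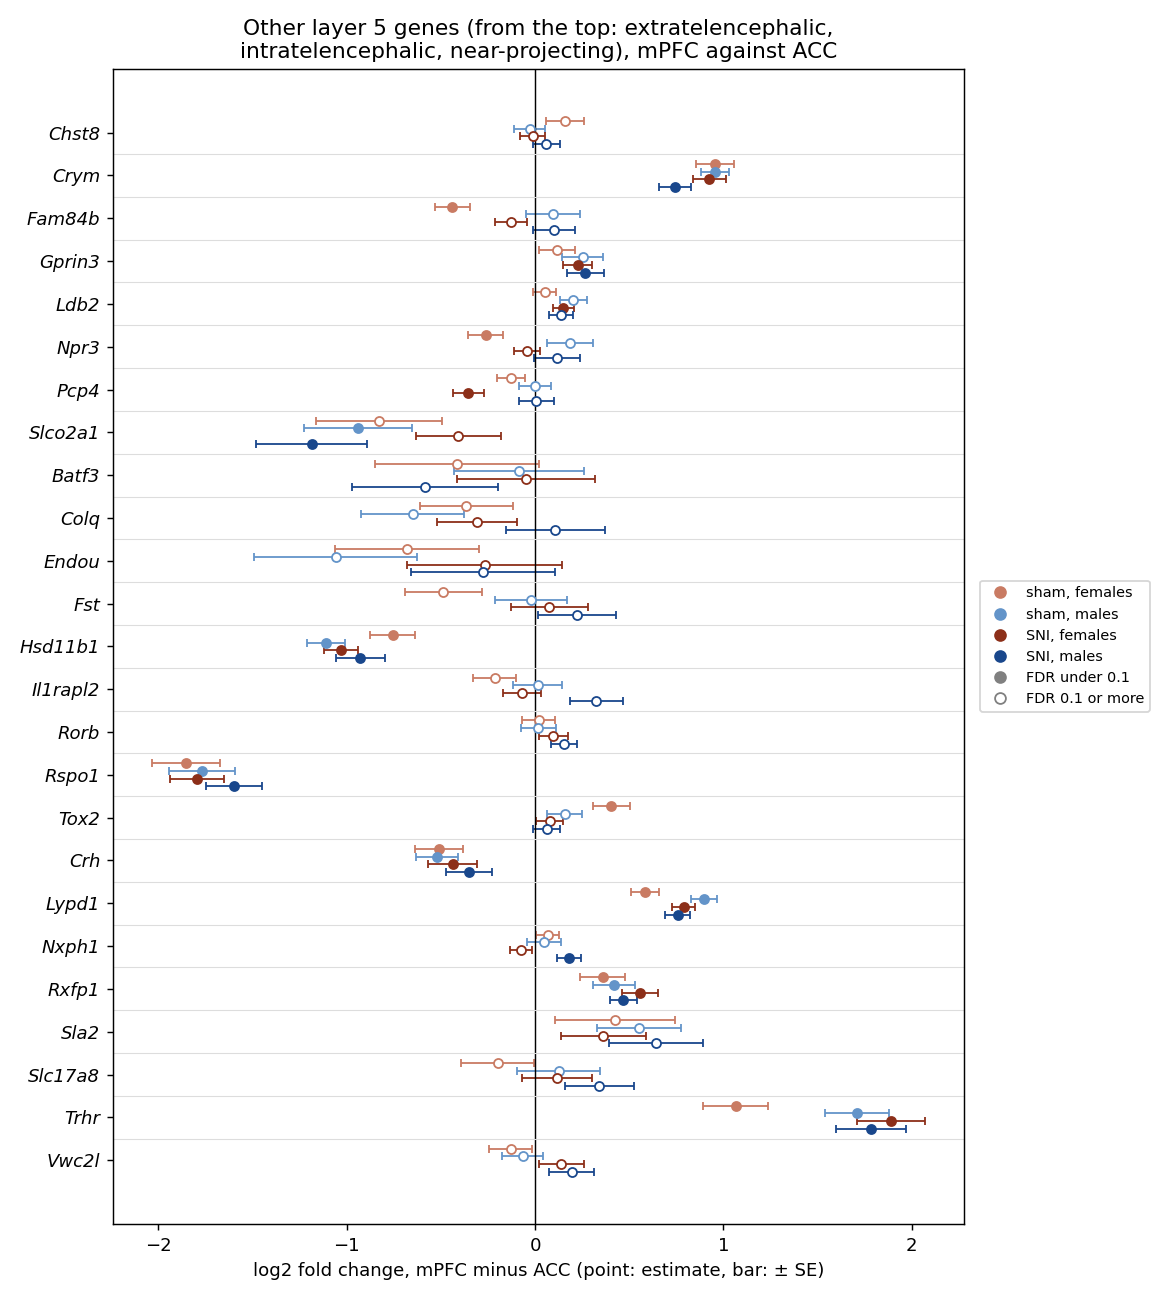
Log2 fold change (x axis, mPFC minus ACC) of the other layer 5 genes in 4 comparisons, with points for the estimate, bars for ± SE and filled points where the FDR was under 0.1, sorted from the top into extratelencephalic, intratelencephalic and near-projecting genes. Crym, Lypd1 and Trhr lie to the right of 0 in all 4, and Rspo1 and Hsd11b1 lie to the left.

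Factors that act around the members were also compared. Of 16 regulators of projection neuron subtype, 4 were called higher and 4 lower in the mPFC of sham females, 3 and 5 in sham males, 5 and 7 in SNI females, and 4 and 4 in SNI males. Bhlhe22, a repressor needed for corticospinal identity, was higher in all 4 (0.76, 0.75, 0.74 and 0.77), with 60.6 to 83.8 CPM in the mPFC and 40.5 to 51.1 CPM in the ACC. Lmo3 was higher in all 4 (0.46, 0.45, 0.32 and 0.41) and Id2 lower in all 4 (-0.44, -0.40, -0.41 and -0.32).

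Relatives of the members by family were all lower in the mPFC where they were called. Of 9 tested, 4, 3, 4 and 5 were called lower in sham females, sham males, SNI females and SNI males, and none higher. Bcl11a, the paralogue of Bcl11b, was lower, with log2 differences of -0.19, -0.31, -0.25 and -0.26, where Bcl11b was higher. Pou3f2 and Pou3f3, paralogues of Pou3f1, were lower in all 4, with log2 differences of -0.71, -0.72, -0.63 and -0.38 for Pou3f2 and of -0.28, -0.40, -0.40 and -0.36 for Pou3f3. Around Rbp4, 12 genes of retinoid handling were tested, of which 2 were called higher in each comparison and 3, 5, 1 and 4 lower. Aldh1a1, which makes retinoic acid, differed by -1.09, -1.34, -1.59 and -1.45, whereas Aldh1a3, another such enzyme, differed by 0.41, 1.21, 0.96 and 1.05. Rxrg, a retinoid X receptor that striatal neurons also express, differed by 1.11, 1.36, 1.56 and 1.32.

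The second question was whether SNI changed these genes. No member was a DEG between SNI and sham in any of the 4 comparisons, of which the mPFC and ACC ones share no libraries with each other but use the same sham libraries as the region comparisons. In the female mPFC 0 of 8 were called, against 0.00592% of 16897 genes, and 2 members had an unadjusted p under 0.05. In the male mPFC 0 of 8 were called, against 0.494% of 16989 genes, and 3 had an unadjusted p under 0.05. In the female ACC the count was 0, against 0.024% of 16684 genes, with 0 members at an unadjusted p under 0.05, and in the male ACC it was 0, against 0.00599% of 16702 genes, with 1 such member. With both sexes in 1 fit, 0 of 8 were called in the mPFC and in the ACC (0% of 17641 and 0% of 17289 genes), with 3 and 0 members at an unadjusted p under 0.05. DESeq2 called 0 members in each of these 6 comparisons.

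**Figure D4:**
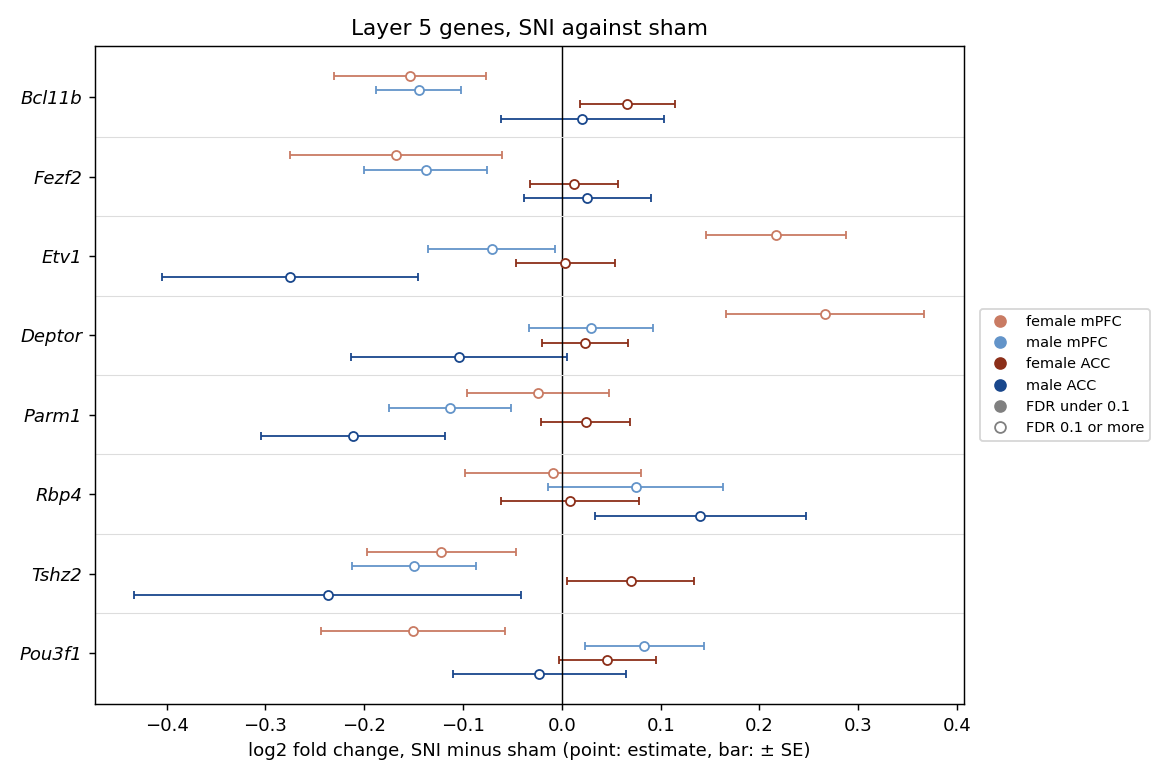
Log2 fold change of each gene between SNI and sham (x axis, SNI minus sham) in the mPFC and ACC of each sex, each of 3 libraries against 3, with points for the estimate and bars for ± SE. All points are open, since no gene reached an FDR under 0.1, and the estimates lie between -0.28 and 0.27.

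Bcl11b had the smallest adjusted p of the members in these comparisons. In males the SNI libraries had 100, 98.6 and 97.6 CPM and the sham libraries 111, 110 and 107 CPM, so the SNI libraries were all below the sham ones, and the log2 difference was -0.14 ± 0.04 (adjusted p = 0.21). In females the SNI libraries had 100, 104 and 93.8 CPM and overlapped the sham libraries, and the difference was -0.15 ± 0.08 (adjusted p = 0.433). In the fit of both sexes it was -0.15 ± 0.04 (adjusted p = 0.384). In the ACC the difference was 0.07 ± 0.05 in females and 0.02 ± 0.08 in males. Fezf2 had log2 differences of -0.17 ± 0.11 and -0.14 ± 0.06 in the female and male mPFC (adjusted p = 0.511 and 0.427) and of 0.01 ± 0.04 and 0.03 ± 0.06 in the ACC. Layer 6 genes moved with them in the male mPFC, where 4 of 10 were called lower after SNI (Syt6 with a log2 difference of -0.43) and the summed level went from 279 to 308 CPM in sham to 220 to 250 CPM in SNI. In that comparison 8 of 10 oligodendrocyte genes were called lower as well. The part of either in the values of Bcl11b and Fezf2 was not tested. Scaled to genes of excitatory neurons in place of all genes, the male mPFC gave 4 members lower after SNI. These were Bcl11b (-0.24), Fezf2 (-0.24), Tshz2 (-0.25) and Parm1 (-0.21), with adjusted p-values between 0.05 and 0.0794, in a fit that called 10.7% of all genes. The summed level of the scaling genes was itself higher after SNI there, with 5809 to 6204 CPM in sham and 6485 to 6859 CPM in SNI. The part of that rise in the 4 calls was not tested.

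In the female mPFC the estimates of Etv1 and Deptor were above 0. Etv1 had 117, 107 and 102 CPM after SNI, all above the sham values, and a log2 difference of 0.22 ± 0.07 (adjusted p = 0.401). Deptor had 52.4, 40.5 and 44.5 CPM, overlapping the sham values, and 0.27 ± 0.10 (adjusted p = 0.403). With all libraries Fezf2 was at -0.17 ± 0.11 and Pou3f1 at -0.15 ± 0.09. The calls, and in part the values, depended on replicate 3 of the female sham mPFC. Without it 4 members were called, Etv1 (0.24 ± 0.07, adjusted p = 0.055) and Deptor (0.34 ± 0.10, adjusted p = 0.053) higher, and Fezf2 (-0.27 ± 0.09, adjusted p = 0.09) and Pou3f1 (-0.24 ± 0.08, adjusted p = 0.0717) lower. The share of all genes called rose to 15.9% in that fit, so 4 of 8 must be read against it.

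In the male ACC the estimates of Etv1 and Parm1 were below 0. Etv1 had 108, 117 and 144 CPM after SNI, a log2 difference of -0.28 ± 0.13 (adjusted p = 0.768), and Parm1 had 71.6, 73.5 and 89.6 CPM, a difference of -0.21 ± 0.09 (adjusted p = 0.768). For both genes the SNI libraries overlapped the sham ones. Without replicate 3 of the male sham ACC, Etv1 (-0.40 ± 0.10, adjusted p = 0.049) and Deptor (-0.23 ± 0.06, adjusted p = 0.061) were called lower, 2 of 8 members where 13.5% of all genes were called. Tshz2 was at -0.24 ± 0.20 in the male ACC and 0.07 ± 0.06 in the female ACC, and Rbp4 was between -0.01 and 0.14 in the 4 comparisons, with adjusted p-values between 0.769 and 0.99.

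Whether the SNI differences depended on region or sex was tested with interaction terms, and 0 members were called in any. The region by SNI term gave 0 of 8 in females (0% of 17451 genes) and 0 of 8 in males (0% of 17504 genes), with 2 and 0 members at an unadjusted p under 0.05. Pou3f1 was called in females without replicate 3 of the female sham mPFC (-0.29 ± 0.09, adjusted p = 0.0731), where 11.6% of all genes were. The sex by SNI term gave 0 of 8 in the mPFC (0% of 17641 genes) and 0 of 8 in the ACC (0% of 17289 genes), with 1 and 0 such members. The largest of them in the mPFC was that of Etv1, 0.29 ± 0.10 (females minus males, adjusted p = 0.225). Without replicate 3 of the female sham mPFC it was 0.31 ± 0.10 (adjusted p = 0.0637), and Pou3f1 was called too (-0.33 ± 0.10, adjusted p = 0.0419), while 18.3% of all genes were called. Without replicate 3 of the male sham ACC the ACC term was called for Etv1 (0.40 ± 0.12) and Deptor (0.25 ± 0.08), where 9.65% of all genes were. DESeq2 called 0 members in each interaction.

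The sexes were compared in sham mice. In the mPFC 0 of 8 members were called (0.177% of 16907 genes), with 3 at an unadjusted p under 0.05, and in the ACC 0 of 8 (0.0958% of 16704 genes), also with 3. Deptor was lowest in the sham female mPFC, where its 3 libraries (36.8, 35.1 and 42.1 CPM) lay below the 3 male ones (46.4, 46.9 and 50.6 CPM), and the log2 difference (females minus males) was -0.33 ± 0.08 (adjusted p = 0.218). DESeq2 called Deptor there (-0.33 ± 0.09, adjusted p = 0.0451), and no other member, with 0.597% of all genes called. Without replicate 3 of the female sham mPFC, Deptor (-0.42 ± 0.06, adjusted p = 0.0073) and Etv1 (-0.22 ± 0.05, adjusted p = 0.0245) were called, where 15.5% of all genes were. In the ACC the widest difference was that of Tshz2, -0.41 ± 0.13 (adjusted p = 0.62). The region by sex term in sham mice called 0 of 8 (0.0115% of 17458 genes), with Deptor at -0.37 ± 0.14 (adjusted p = 0.628), the 1 member with an unadjusted p under 0.05.

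Apart from the groups, the members varied together in some pairs. For each library the deviation of log2 CPM from the mean of its group was taken, and Pearson's r was computed over the 24 libraries as a description. Points of this kind share a library, with its depth, dissection and RNA. Both libraries that stood apart from their groups were kept, and r was not computed without them. Replicate 3 of the male sham ACC was the lowest of its group in both Etv1 (121 CPM) and Deptor (48.6 CPM). Over the 28 pairs r went from -0.642 (Etv1 and Rbp4) to 0.804 (Etv1 and Parm1), with a median of -0.031 and 13 pairs above 0. Etv1 and Deptor (0.731), Parm1 and Tshz2 (0.624) and Bcl11b and Fezf2 (0.611) came next. The extratelencephalic factors Bcl11b and Fezf2 thus varied with each other, whereas Pou3f1 had r of -0.101 with Bcl11b and 0.196 with Fezf2.

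**Figure D5:**
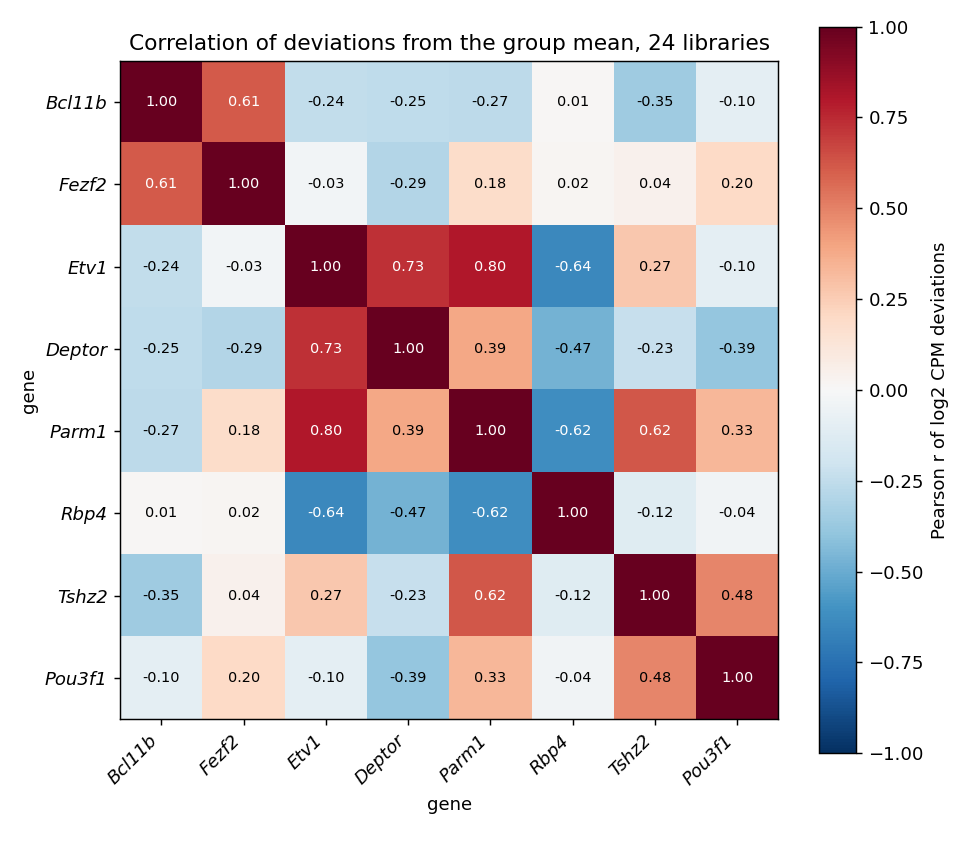
Pearson's r between the 8 genes (rows and columns), from deviations of log2 CPM from the group mean in 24 libraries, coloured from blue (-1) to red (1). The warmest pairs are Etv1 with Parm1 (0.804) and with Deptor (0.731), and Rbp4 is cool with Etv1 (-0.642) and Parm1 (-0.621).

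The same deviations were set beside the mean deviation of each marker list. Bcl11b and Fezf2 had r of 0.572 and 0.426 with the layer 6 list and of 0.365 and 0.254 with the striatal list. With the other extratelencephalic genes their values were 0.322 and 0.038, with the other near-projecting genes 0.379 and 0.42, and with the subtype regulators 0.407 and 0.509. The highest value of Fezf2, 0.639, was with the mTOR list and that of Bcl11b was with layer 6. Etv1 and Deptor had negative values with the layer 6 list, -0.492 and -0.515, and with the striatal list, -0.569 and -0.551. Their lowest values, -0.612 and -0.677, were with the list of inhibitory neurons. With the other intratelencephalic genes Etv1 had only 0.015, and its highest value, 0.483, was with the other near-projecting genes. Tshz2 had -0.238 with the other near-projecting genes. Pou3f1 had its highest value, 0.722, with the list of layers 2/3 and 4, and Parm1 its lowest, -0.688, with microglia. With the pan-excitatory list the values went from -0.243 (Etv1) to 0.554 (Pou3f1). Values with oligodendrocytes stayed between -0.314 and 0.222, and that of Rbp4 with the choroid plexus was 0.01.

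The genes most like each member by this measure were picked from 18078 genes. For Fezf2 the first was Adgra1 (0.948), an adhesion receptor. For Bcl11b they were Sdk2 (0.849), a synaptic adhesion protein, and Sebox (0.823), and for Pou3f1 Plxnd1 (0.908), a semaphorin receptor, and Cit (0.9). For Etv1 they were Ltn1 (0.93) and Usp15 (0.901), which act in ubiquitin turnover, for Deptor Ugcg (0.948) and Uhmk1 (0.948), and for Parm1 Ntng1 (0.854) and Klhdc10 (0.85). Tshz2 was most like Slc17a6 (0.899), the vesicular glutamate transporter VGLUT2, and Sparcl1 (0.85), and Rbp4 was most like Dedd (0.828) and Arhgef15 (0.806). The highest of so many values is high by selection, so these are descriptions of 24 libraries.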

How the data were processed

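Gene expression was measured by RNA-seq in 24 libraries, 8 groups of 3 pools. The authors deposited 4 tables of raw counts, 1 for each sex and region, which give whole reads per gene without normalization. Per the submitters' processing notes, reads were handled with Trimmomatic 0.36, Bowtie2 2.33, HISAT2 2.1.0, HTSeq 0.9.1 and edgeR 3.34.0 on GRCm38. Which gene models were counted, and whether strand was used, is not given in the sources used here. Columns are named by sex, treatment and replicate, and their region was taken from the table that holds them. Symbols, exonic lengths and coordinates came from GENCODE M21.

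R 4.3.3 with edgeR 4.0.16 was used. Each comparison used its own libraries (6 for 2 groups, 12 for interactions and both sexes), filterByExpr (a count of 10, a total of 15), TMM factors and the quasi-likelihood F-test (legacy setting), called at an FDR under 0.1 (Benjamini-Hochberg over all genes tested). CPM and RPKM use TMM library sizes, and log2 CPM a prior count of 2. The depth of 23853845 to 32864391 reads makes counting error small for these genes. Replicate numbers were not used to pair the libraries. The mPFC and ACC libraries share these numbers, and whether both regions came from the same pools of mice is not stated in the sources used here. Replicates within a group differed beyond sampling noise (chi-square per gene between 2.59 and 18.5), so none was counted as a repeat, and p-values measure the spread between pools.

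Alternatives were DESeq2 1.42.0, RLE factors, no low-count filter, the current quasi-likelihood method, scaling by pan-excitatory genes, 1 model over 24 libraries, a replicate block, and leaving out each library. The steps were tested on simulated data. Named genes are the 8 members, up to 3 genes of each marker list with the smallest adjusted p in the sham region comparisons, any gene of the other layer 5 lists, and the 2 genes most like each member (1 for Fezf2, since some items are not reported here). Mtor and the oligodendrocyte counts after SNI were added with their values seen. The members and lists were chosen with earlier results of these data known, and nothing here is independent support for those results. Figures were drawn with matplotlib 3.10.9.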

Additional observations from a re-analysis of the deposited data

How the results depend on the processing

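Counts of members called between regions in sham females, SNI females and sham males stayed within 1.5 times under every alternative, and were 7 to 7, 8 to 8 and 5 to 8 without single libraries (5 without replicate 3 of the male sham mPFC). In SNI males, where all 8 were called, scaling by pan-excitatory genes left 5 and leaving out single libraries left 4 to 8, the lowest without replicate 1 of the SNI mPFC. Deptor, Etv1, Parm1 and Rbp4 lost their call there in at least 1 setting, as did Pou3f1 and Rbp4 in sham males. No called member changed direction. Between SNI and sham, leaving out single libraries gave 0 to 4 in the female mPFC and 0 to 2 in the male ACC, through replicate 3 of the female sham mPFC and of the male sham ACC. In the male mPFC the count was 4 with pan-excitatory scaling (10.7% of all genes called) and 1 (Bcl11b, adjusted p = 0.0611) with the replicate block (4.39%). Interactions gave 0 to 1 for region by SNI in females (Pou3f1, without replicate 3 of the female sham mPFC, where 11.6% of all genes were called), 0 to 2 for sex by SNI in the mPFC and 0 to 2 in the ACC. Between sham females and males, the mPFC gave 1 with DESeq2, 1 without the low-count filter and 1 with the replicate block (Deptor in each), and 0 to 2 without single libraries, and the ACC gave 1 (Tshz2) without the filter. The cause was not tested. The replicate block changed no other count by over 1.5 times. Deviations of same-numbered libraries had correlations of -0.103 to 0.153, and in no comparison were all above 0.1, so the number was not taken to pair libraries. Such correlations cannot show whether both regions came from the same mice. Over all genes the replicate block moved the calls between SNI and sham in the male mPFC from 84 to 745. The lowest count of any member was 302 reads, so depth limited these results little.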

Other observations

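Genes of other layers and cells differed between the regions in the same libraries. Of 9 genes of layers 2/3 and 4, 1 was called higher and 4 lower in the mPFC of sham females and of sham males, and 3 higher and 4 lower in SNI females and SNI males. Lamp5 was lower in all 4 comparisons (-0.95, -1.02, -1.11 and -0.89 on the log2 scale) and Otof was higher in all 4 (0.91, 0.96, 1.26 and 0.80). Of 12 genes of inhibitory neurons, Pvalb, the calcium buffer of fast-spiking cells, was lower in all 4, with log2 differences of -1.59, -1.70, -1.96 and -1.59, and Gad1 was lower with -0.35, -0.42, -0.48 and -0.44, and 4, 2, 5 and 3 of the list were called lower and 2, 0, 1 and 2 higher. Of 10 pan-excitatory genes 3, 1, 3 and 1 were called higher and 1, 2, 4 and 1 lower, with Nrn1 lower in all 4 and Baiap2 higher in all 4.

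Oligodendrocyte genes were not called between the regions in sham mice (0 of 10 in each sex), whereas 9 of 10 were called lower in the mPFC of SNI females and of SNI males. With all libraries, the region by SNI term called 0 of 17451 genes in females and 0 of 17504 in males. A change of this region difference with SNI was therefore not shown. Without replicate 3 of the female sham mPFC the female term called 11.6% of 17821 genes. The oligodendrocyte genes were not examined in that fit. The summed level of the oligodendrocyte genes was 1128 to 2830 CPM (median 2580 CPM) in the SNI female mPFC and 3091 to 4096 CPM in the SNI female ACC. Of 8 astrocyte genes 3, 2, 4 and 5 were called lower, of 6 endothelial genes 3, 2, 2 and 5 lower, and of 7 microglial genes 3, 0, 1 and 0 higher. Of the choroid plexus genes 5, 4, 4 and 4 were tested. Of these, 4, 2, 0 and 0 were called lower and 0, 1, 1 and 0 higher. Their summed level reached 85.5 CPM in 1 male SNI mPFC library, where the group median was 5.76 CPM. None of the 8 hepatocyte genes passed the low-count filter in the region comparisons. Their summed level was uneven, and reached 55.3 CPM in 1 male SNI ACC library, where the group median was 0.231 CPM. In the male sham ACC the median was 4.05 CPM. The part of either signal in the values of Rbp4 was not tested.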
